A study of Danio rerio with 48 samples.

Results

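The U7 snRNP is the small nuclear ribonucleoprotein that cuts the 3′ end of replication-dependent histone mRNA, and the SMN complex, which was mutated here, builds its protein ring. The genes described are those of the proteins specific to that particle and of the factors that work with it. They were chosen by symbol and not by a rule on their expression, but with earlier results of these data known. They are *lsm10*, *lsm11*, *slbp*, *npat*, *casp8ap2*, *cpsf2*, *cpsf3* and *sympk*, 8 of 34707 Ensembl gene identifiers in the files. Each symbol matched 1 identifier: ENSDARG00000101222 for *lsm10*, ENSDARG00000090854 for *lsm11*, ENSDARG00000100558 for *slbp*, ENSDARG00000055548 for *npat*, ENSDARG00000022718 for *casp8ap2*, ENSDARG00000028971 for *cpsf2*, ENSDARG00000027649 for *cpsf3* and ENSDARG00000059553 for *sympk*. All 8 genes passed the filter on low counts in every comparison.

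Zebrafish larvae of the TAB-5 background were sequenced by RNA-Seq at 7 dpf, as the bodies left after a caudal fin biopsy for genotyping. All were exposed to copper sulfate earlier, which kills the hair cells of the lateral line. The 33 libraries formed 11 groups of 3. Larvae homozygous for 1 of 7 mutations were compared with wild-type larvae. *smn1* (fh229), *gemin3* (hg105) and *gemin5* (hg80) mutants were each compared with their own wild-type siblings. They are called regeneration mutants here, as the paper found their hair cell regeneration impaired. *gemin2* (hg108), *gemin4* (hg109), *gemin6* (hg110) and *gemin7* (hg111) mutants, in which it found no such effect, are called non-regeneration mutants. These 4 were compared with a shared control. That control held 1 wild-type library of each of the *gemin4*, *gemin6* and *gemin7* families, so that the *gemin2* mutants had no wild-type library of their own family and the 4 comparisons share their control libraries. Larvae of a genotype, from a single pair of heterozygous parents, were pooled. The labels do not say whether the 3 libraries of a group came from separate crosses, so p-values measure only the spread between these libraries. The *gemin3* family was sequenced with reads of 150 nt and the others with reads of 125 nt.

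Totals ranged from 30045993 to 88871247 expected counts per library, with a median of 36496510. The mRNA of the mutated gene was at 28.6% ± 2.6 of control (SD, n = 3) in *gemin2* mutants, at 49.7% ± 0.73 in *gemin3* mutants, where the files name the gene *ddx20*, and at 59.1% ± 12.9 and 62.8% ± 7.8 in *gemin5* and *gemin7* mutants. In these 4 mutants every mutant library lay below every control library. In *smn1*, *gemin4* and *gemin6* mutants the mutated gene's mRNA was at 95.3% to 99.3% of control and the groups overlapped, so its level does not check these labels. As a check on the tissue, marker genes of muscle (*ckma*), liver (*fabp10a*), exocrine pancreas (*prss1*), neurons (*elavl3*) and epidermis (*krt4*) were present in every library. Each was at 94.9 CPM (counts scaled to library size, TMM-normalized) or more. The list had 10 marker symbols, for which 8 identifiers were found. Those named *rho* (rod opsin) had lowest values of 138.3, 3.4 and 0.016 CPM. Cells of all these kinds add to each value, and fewer cells of a type cannot be told apart from less RNA per cell.

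In animal cells the mRNAs of the replication-dependent histones end in a stem-loop in place of a poly(A) tail. The stem-loop is bound by SLBP, and the U7 snRNA pairs with the pre-mRNA downstream of it. The U7 ring resembles that of the spliceosomal snRNPs, but Lsm10 and Lsm11 take the places of SmD1 and SmD2. In human cells Lsm11 binds FLASH, the product of *casp8ap2*, and together they recruit the cleavage module of symplekin (*sympk*), *cpsf2* and the endonuclease *cpsf3*, which also cuts the pre-mRNAs of genes with a poly(A) tail. NPAT turns on histone gene transcription at the entry into S phase.

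The genes specific to the histone pathway had lower median levels than those shared with poly(A) site cleavage, though *npat* and *sympk* were close. Levels of different genes are compared here in TPM, the transcript share that RSEM estimates, which corrects for gene length. Over the 12 wild-type libraries the median was 22.7 TPM for *cpsf3*, 13.7 TPM for *cpsf2* and 9.76 TPM for *sympk*, against 9.60 TPM for *npat*, 7.72 TPM for *slbp*, 5.23 TPM for *casp8ap2*, 4.45 TPM for *lsm10* and 1.24 TPM for *lsm11*. *cpsf3* was the highest of the 8 and *lsm11* the lowest in 33 of 33 libraries. Some neighbours in this order were not separated: *sympk* exceeded *npat* in 7 of 12 wild-type libraries, *npat* exceeded *slbp* in 9 of 12, and *casp8ap2* exceeded *lsm10* in 8 of 12. *slbp* exceeded *casp8ap2* in 32 of 33 libraries. The low level of *lsm11* came with few reads, 18 to 89 per library, and *lsm10* had 33.1 to 210.3. The expected count of *lsm10* was not a whole number in any of the 33 libraries, as happens where RSEM divides reads that also fit another gene, and its level is less certain than that of the other 7, whose counts were whole.

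None of the 8 mRNAs changed past the test in any of the 7 mutants, and most were measured close to control. Of 56 comparisons, 8 genes in 7 mutants, 53 gave a log2 fold change between -0.25 and 0.25. The share of all genes within these bounds was not counted, so whether the 8 were unusually stable was not tested. Confidence intervals differed in width. That of *cpsf3* in *gemin3* mutants, -0.20 to 0.10, lay within the bounds, and that of *lsm11* in *smn1* mutants, -0.95 to 0.84, ran far past them. Of the 56 comparisons, none passed an adjusted p-value of 0.05 by edgeR's quasi-likelihood test (Benjamini-Hochberg, over all genes tested). In 1 the unadjusted p-value was below 0.05, and DESeq2 called none of the 56 either. An unadjusted p-value below 0.05 was reached by 5.93% of all genes in *smn1*, 11.4% in *gemin3*, 11.6% in *gemin5*, 20.8% in *gemin2*, 5.68% in *gemin4*, 3.69% in *gemin6* and 8.23% in *gemin7* mutants. Among all genes tested, the same rule called 0.0921% in *smn1*, 0.978% in *gemin3*, 0.907% in *gemin5*, 5.39% in *gemin2*, 0.0173% in *gemin4*, 0% in *gemin6* and 0% in *gemin7* mutants (none there, beside 855 and 1908 genes with an unadjusted p-value below 0.05 and 22 and 61 called by DESeq2). A count of 0 among 8 genes is near these shares and says little about the 8 as a group. The median log2 fold change of the 8 lay between -0.04 (*gemin6*) and 0.12 (*gemin2*), where that of all genes lay between -0.01 and 0.01.

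**Figure D1:**
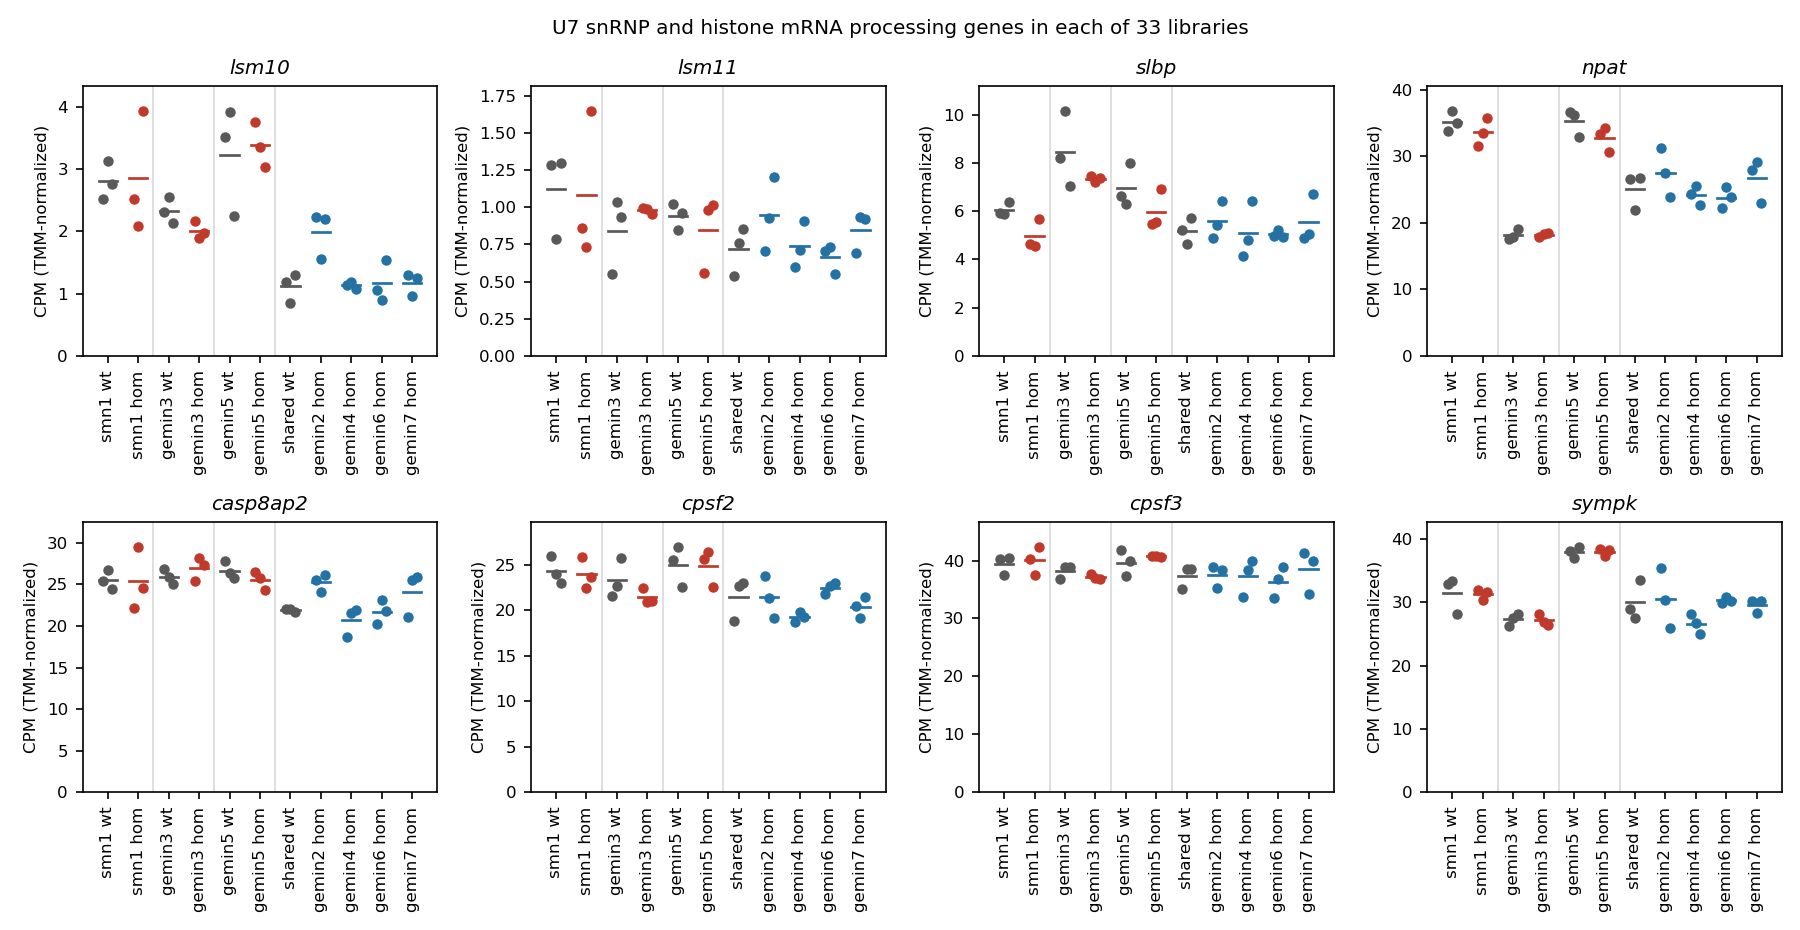
Level of each of the 8 genes (CPM, after TMM normalization, axis from 0) in each of 33 libraries, with wild-type groups in gray, regeneration mutants in red and non-regeneration mutants in blue. Points are libraries and bars are group means. Most mutant points overlap those of their control; *lsm10* in *gemin2* mutants, at 1.55 to 2.24 CPM, lies above the shared control, at 0.85 to 1.31 CPM.

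**Figure D2:**
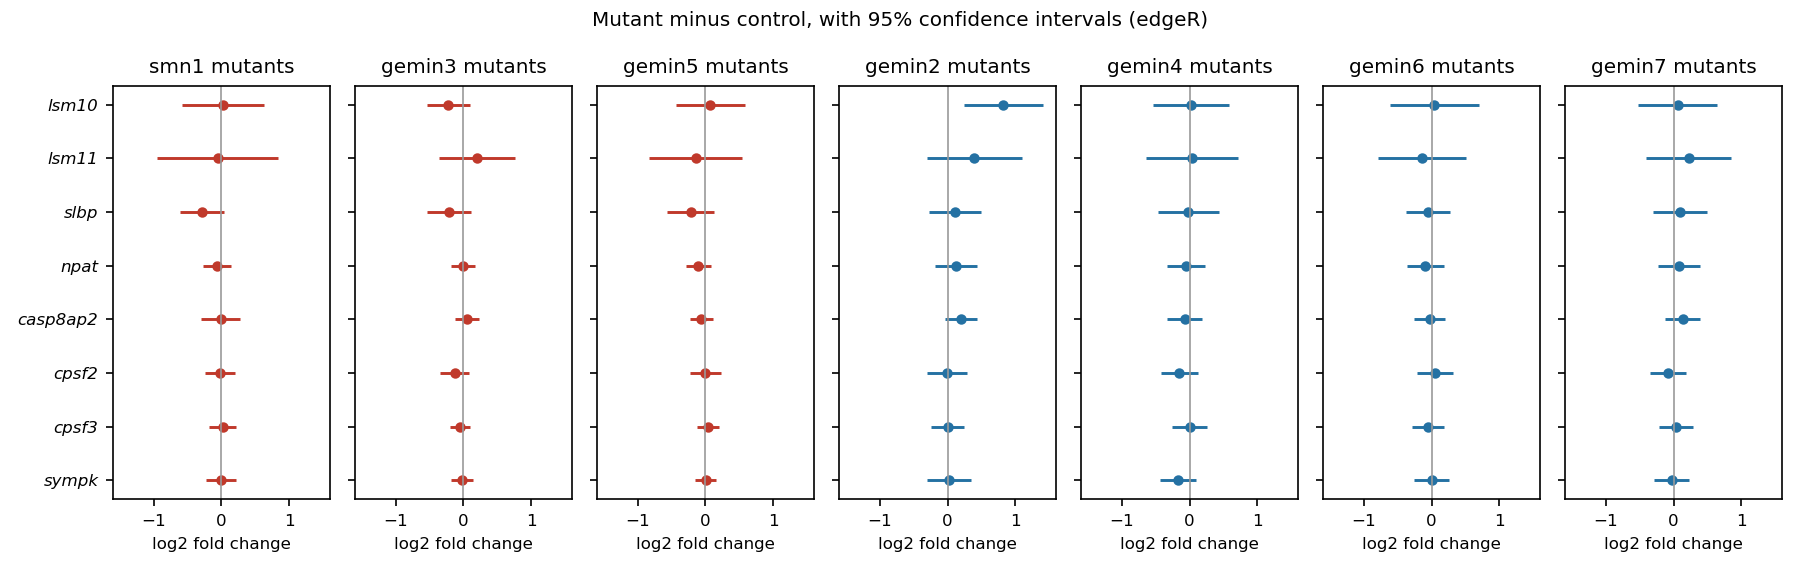
Log2 fold change of each gene in each mutant (points) with its 95% confidence interval (lines) from edgeR's quasi-likelihood fit on 3 mutant and 3 control libraries. The interval of *lsm10* in *gemin2* mutants, 0.24 to 1.41, is the only one of the 56 that does not include 0, and the intervals of *lsm11* are wide.

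*lsm10*, which encodes the ring protein in the place of SmD1, showed the largest difference. In CPM, its level was 2.24, 1.55 and 2.19 in the 3 *gemin2* mutant libraries and 1.19, 0.85 and 1.31 in the shared control. Every *gemin2* mutant library was above every control library, as for 14.3% of all genes in that comparison. The mean was 178.7% of control, a log2 fold change of 0.82 ± 0.26 (SE), with an adjusted p-value of 0.112 by edgeR's quasi-likelihood test (Benjamini-Hochberg). When all 33 libraries shared an estimate of the spread, the same test gave an adjusted p-value of 0.0230, in a fit that called 11% of all genes.

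The other non-regeneration mutants had *lsm10* at the level of that control. The libraries held 1.14, 1.19 and 1.07 CPM in *gemin4* mutants. They held 1.06, 0.90 and 1.53 CPM in *gemin6* mutants, and 1.304, 0.96 and 1.26 CPM in *gemin7* mutants. All 3 groups overlapped the control, with log2 fold changes of 0.02 to 0.06. Against the single wild-type library of its own family, a value with no test, *lsm10* was at 0.45 in *gemin6*, -0.066 in *gemin4* and -0.16 in *gemin7* mutants on the log2 scale. The lowest *gemin2* library was just above the highest of the 9 values of these mutants. The difference itself was tested: *lsm10* was higher in *gemin2* mutants than in the mean of the other 3 non-regeneration mutants by 0.78 ± 0.19 (SE) on the log2 scale, with an adjusted p-value of 0.00457 by edgeR's quasi-likelihood test (Benjamini-Hochberg). DESeq2 called it as well. It was the only 1 of the 8 genes called there, where 16.1% of all genes were called. Without the libraries of replicate 1 the difference was 0.71 and its adjusted p-value by the same edgeR test 0.163. Of 168 tests between mutants, for 8 genes in 21 pairs, 3 passed, and all 3 were of *lsm10*, in *gemin2* against *gemin4*, *gemin6* and *gemin7* mutants. These pairs called 10.2%, 16.8% and 10.4% of all genes, so a call there is not particular to *lsm10*.

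Against wild-type larvae of other families, the level of *lsm10* in *gemin2* mutants was not high. *lsm10* reached 2.51 to 3.14 CPM in wild-type siblings of *smn1* mutants, 2.25 to 3.92 CPM in those of *gemin5* mutants and 2.13 to 2.56 CPM in those of *gemin3* mutants. The means of the wild-type groups differed by 2.89-fold, the widest span of the 8 genes. The lowest was that of the shared control, which mixes families. Set against the mean of all 4 wild-type groups, an alternative chosen after seeing the data, the log2 fold change in *gemin2* mutants was -0.15. Since *gemin2* mutants have no sibling library, their family and their mutation cannot be told apart.

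In the regeneration mutants *lsm10* was not called against the siblings, and its mean in *gemin3* mutants was 86.2% of control. Its values were 2.53, 2.10 and 3.95 CPM in *smn1* mutants, with a log2 fold change of 0.03 ± 0.26 (SE). They were 3.77, 3.35 and 3.04 CPM in *gemin5* mutants (0.07 ± 0.22) and 2.17, 1.89 and 1.97 CPM in *gemin3* mutants (-0.22 ± 0.14). The groups overlapped in all 3 families.

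*lsm11*, whose product takes the place of SmD2 and binds FLASH, gave log2 fold changes from -0.15 in *gemin5* to 0.39 in *gemin2* mutants, with adjusted p-values from 0.522 to 0.999 by edgeR's quasi-likelihood test (Benjamini-Hochberg). Its values were 0.86, 0.73 and 1.65 CPM in *smn1* mutants against 1.29, 0.78 and 1.301 CPM in siblings. In *gemin2* mutants they were 0.70, 0.93 and 1.21 CPM against 0.54, 0.76 and 0.85 CPM. Mutant and control libraries overlapped in all 7 comparisons. Against the single wild-type library of its own family, with no test, *lsm11* in *gemin4* mutants was at 0.46, where the shared control gave 0.03. The 95% intervals were wide, from -0.95 to 0.84 in *smn1*, -0.37 to 0.77 in *gemin3* and -0.31 to 1.09 in *gemin2* mutants, and differences inside an interval could not be told from 0 in that mutant.

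The Sm genes gave higher values in the mutants, by amounts that differed between genes. In *gemin2* mutants only *snrpg* among them, at 0.92 on the log2 scale, exceeded *lsm10*, at 0.82, and *snrpb* was at 0.035. Of the ring proteins that U7 shares with the spliceosomal snRNPs, 6 identifiers were found for *snrpb*, *snrpd3* (2 identifiers), *snrpe*, *snrpf* and *snrpg*. By edgeR's quasi-likelihood test (Benjamini-Hochberg), *snrpd3*, *snrpe* and *snrpg* rose in *gemin3*, *gemin5* and *gemin2* mutants, 3 of 6 in each. None of the 6 passed in the other 4 mutants, where DESeq2 called 4 in *smn1*, 2 in *gemin4* and none in *gemin6* and *gemin7* mutants. Blocked by replicate number, the fit called 5 of 6 for *smn1* mutants, 4 for *gemin3* and 5 for *gemin5*. Over all genes, that blocked fit called 350, 480 and 1700 in these mutants. The log2 fold change of *snrpg* was 0.98 in *gemin3*, 1.02 in *gemin5* and 0.92 in *gemin2* mutants, and, short of the edgeR threshold without the block, 1.04 in *smn1*, 0.93 in *gemin4*, 0.69 in *gemin6* and 0.33 in *gemin7* mutants. With the block, edgeR's quasi-likelihood test gave *snrpg* an adjusted p-value of 0.00686 in *smn1* mutants. Over the 7 mutants *snrpe* gave 0.40 to 0.83, *snrpf* 0.073 to 0.95 and *snrpb* 0.035 to 0.50. The second identifier of *snrpd3* gave 0.0028 to 0.24, where the first gave 0.62 to 1.56. Reads of such similar genes can be divided differently between them, which was not tested.

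Of the Sm genes whose products Lsm10 and Lsm11 replace, *snrpd2* rose in *gemin3*, *gemin5* and *gemin2* mutants, with log2 fold changes of 0.77 ± 0.10, 0.83 ± 0.12 and 0.61 ± 0.13 (SE) and adjusted p-values of 0.0146, 0.0324 and 0.0333 by edgeR's quasi-likelihood test (Benjamini-Hochberg). In *smn1* mutants its log2 fold change was 0.84, with an adjusted p-value of 0.0931, and of 0.00762 with the replicate number as a block. In *gemin4*, *gemin6* and *gemin7* mutants it was 0.63, 0.34 and 0.40, and did not pass. *snrpd1* passed in no mutant, at 0.04 to 0.24 on the log2 scale. In none of these mutants, with or without the block, was *lsm10* or *lsm11* called.

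**Figure D3:**
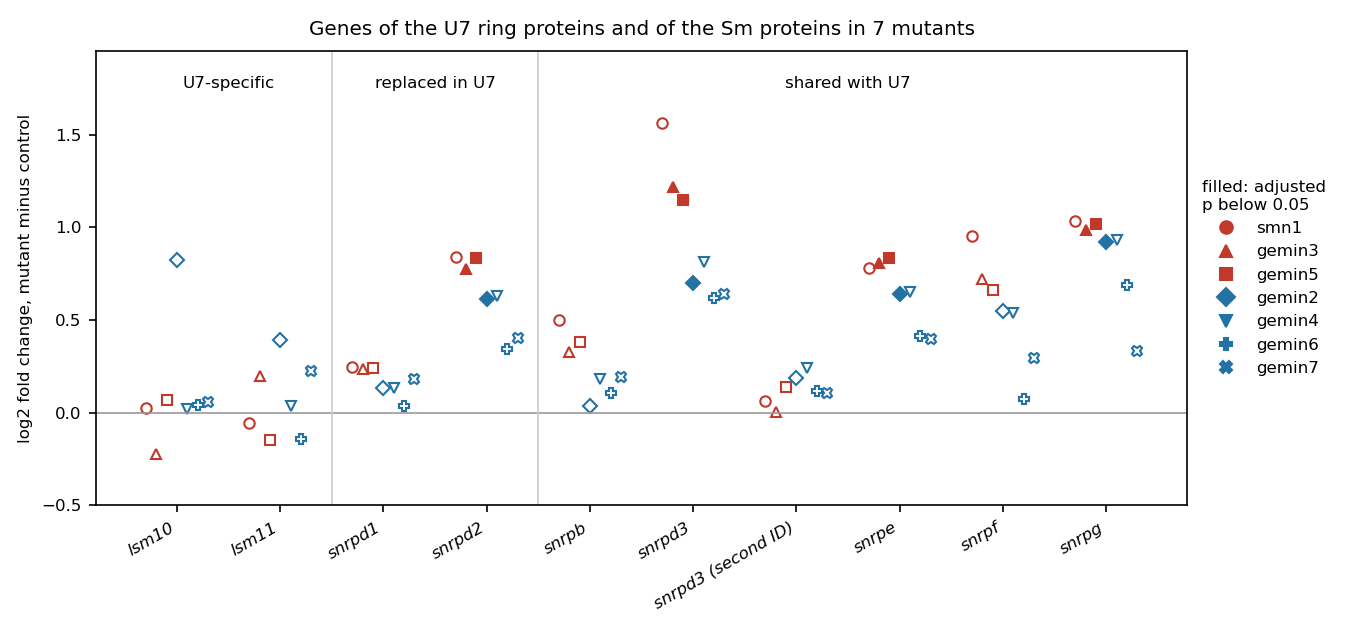
Log2 fold change, mutant minus control, of the genes of the U7-specific proteins, of the Sm proteins they replace and of the Sm proteins shared by both kinds of ring. Each symbol is a mutant (red, regeneration; blue, non-regeneration), and filled symbols passed an adjusted p-value of 0.05. *snrpd2* lies between 0.34 and 0.84 and *lsm11* between -0.15 and 0.39.

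To compare each U7-specific gene directly with the Sm gene whose product it replaces, the ratio of their TPM values was taken within each library, a comparison chosen after seeing the data. The log2 fold changes of *snrpd2* were already known, at 0.84, 0.77 and 0.83 in *smn1*, *gemin3* and *gemin5* mutants. Those of *lsm11* were -0.055, 0.20 and -0.15. The ratio restates these values, which largely set its outcome before the test. None of its p-values, also adjusted, paired or with libraries left out, is separate support for a difference. The *snrpd2* to *lsm11* ratio was 44.8 to 85.0 in *smn1* mutants and 26.1 to 49.3 in their siblings. It was 91.4 to 104.8 in *gemin3* mutants and 53.3 to 103.9 in siblings, and 72.5 to 146.8 in *gemin5* mutants and 38.8 to 54.0 in siblings. In the *gemin5* family the groups did not overlap, and in the other 2 they did. Over the 3 families the ratio was 1.78-fold higher in mutants, a log2 difference of 0.83, with p = 0.00175 in a two-sided exact permutation test that exchanged libraries within families (8000 arrangements, smallest possible p = 0.00025; adjusted p = 0.0035 over the 2 ratios). With 1 of the 18 libraries left out the log2 difference was 0.73 to 0.93, with p from 0.0005 to 0.004 in the same exact test. In same-numbered pairs of mutant and sibling the ratio was higher in 8 of 9. Exchanged within pairs, p was 0.00781 in an exact permutation test (512 arrangements). The ratio was also higher on average in the 4 non-regeneration mutants than in their shared control, where it was 40.7 to 50.9. It was 63.3 to 70.9 in *gemin4* and 56.2 to 69.2 in *gemin6* mutants, groups that did not overlap the control, with log2 differences of 0.56 and 0.46. In *gemin2* and *gemin7* mutants, which overlapped it, the differences were 0.23 and 0.14. Whether the regeneration and non-regeneration mutants differ in this ratio was not tested. The small counts of *lsm11* enter each of these ratios.

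The *snrpd1* to *lsm10* ratio was 1.22-fold higher in the same mutants, a log2 difference of 0.29, with p = 0.0428 (adjusted p = 0.0428) in the exact permutation test. This ratio likewise restates values already known, so its p-values are not separate support either. It was 12.6 to 16.8 in *gemin3* mutants and 10.1 to 11.7 in siblings, groups that did not overlap. In the *smn1* and *gemin5* families they did, and without 11 of the 18 libraries, each left out in turn, the ratio lost its call, with a log2 difference of 0.20 to 0.38 over all 18. In *gemin2* mutants this ratio was 7.57 to 11.9, against 11.1 to 17.9 in the shared control, a log2 difference of -0.68.

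**Figure D4:**
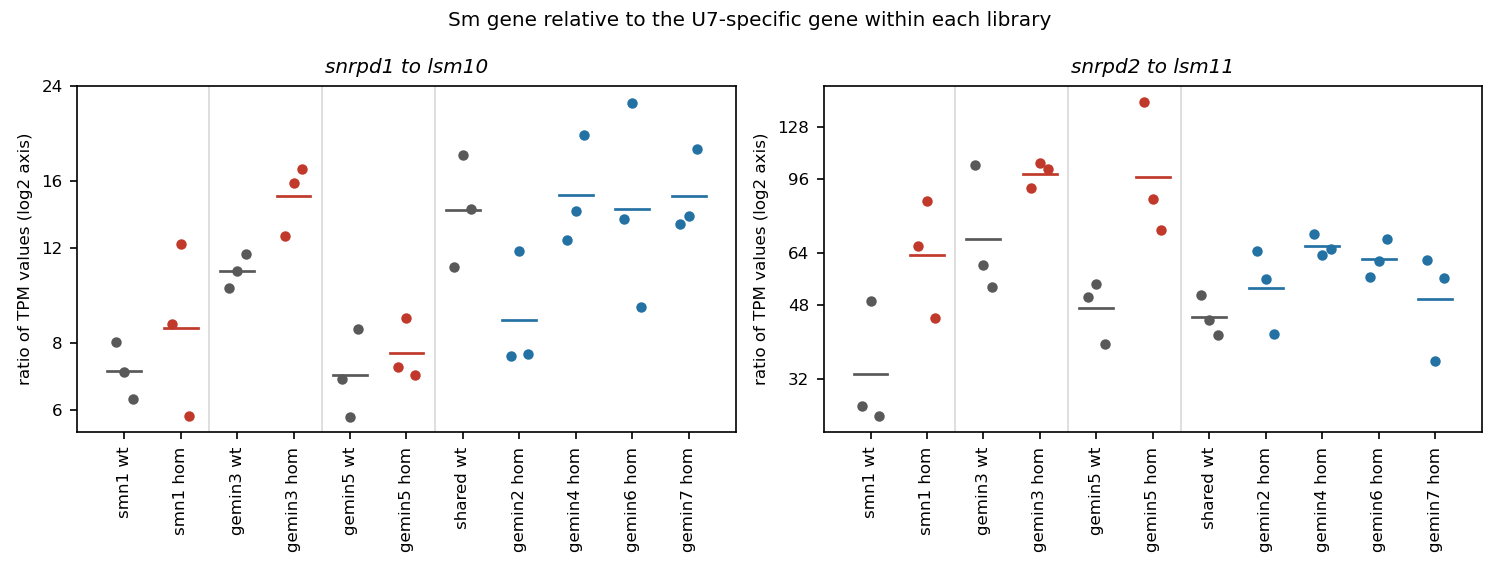
Ratio of the TPM value of *snrpd1* to that of *lsm10* and of *snrpd2* to *lsm11* in each library, on log2 axes, with wild-type groups in gray, regeneration mutants in red and non-regeneration mutants in blue. Points are libraries and bars are geometric means. The *snrpd2* to *lsm11* ratio is higher in mutants than in siblings over the 3 regeneration families by 0.83 on the log2 scale.

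*slbp*, the stem-loop binding protein that stays on histone mRNA through its translation, had lower means in all 3 regeneration mutants. It was at 4.65, 4.57 and 5.66 CPM in *smn1* mutants and at 5.94, 5.87 and 6.37 CPM in siblings. Every *smn1* mutant library lay below every sibling library, as did 6.63% of all genes, and the mean was 81.9% ± 10 of control (SD, n = 3). The log2 fold change was -0.29 ± 0.14 (SE), with an adjusted p-value of 0.878 by edgeR's quasi-likelihood test (Benjamini-Hochberg), and of 0.234 with the replicate number as a block.

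In the *gemin5* family *slbp* was at 5.47, 5.53 and 6.94 CPM in mutants and at 6.62, 6.30 and 7.98 CPM in siblings, and in each replicate number the mutant was lower. In the *gemin3* family it was at 7.45, 7.22 and 7.38 CPM in mutants and at 8.21, 10.2 and 7.03 CPM in siblings. There the mutant was higher in replicate 3, and without the sibling library at 10.2 CPM the log2 fold change was -0.059. Groups overlapped in both families, and the log2 fold changes were -0.22 ± 0.15 and -0.22 ± 0.14 (SE). In the non-regeneration mutants *slbp* lay between -0.06 and 0.11. The mean of the regeneration mutants minus that of the non-regeneration mutants, each relative to its control, was -0.27 for *slbp* (95% interval -0.60 to 0.05), with an adjusted p-value of 0.733 by edgeR's quasi-likelihood test (Benjamini-Hochberg). In that contrast none of the 8 genes was called, also without adjustment or by DESeq2, beside 0.538% of all genes (8.01% without adjustment).

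*npat*, the activator of histone gene transcription, ranged from 92.9% of control in *gemin5* to 109.6% in *gemin2* mutants. Its level differed between the wild-type groups. It was 17.5 to 19.1 CPM in wild-type siblings of *gemin3* mutants, 22.0 to 26.7 CPM in the shared control, 33.8 to 36.9 CPM in siblings of *smn1* mutants and 32.9 to 36.7 CPM in siblings of *gemin5* mutants. The *gemin3* family, sequenced with longer reads, had the lowest *npat*, in mutants (17.8 to 18.4 CPM) as in siblings; read length and family cannot be told apart.

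*casp8ap2*, which encodes FLASH, was at 25.6, 24.1 and 26.2 CPM in *gemin2* mutants and at 22.0, 22.0 and 21.7 CPM in the shared control. Every *gemin2* mutant library was above every control library, as for 14.3% of all genes, and the mean was 115.3% ± 5.0 of control (SD, n = 3). The log2 fold change was 0.20 ± 0.10 (SE), with an adjusted p-value of 0.305 by edgeR's quasi-likelihood test (Benjamini-Hochberg). Against the other non-regeneration mutants *casp8ap2* was 0.19 ± 0.08 (SE) higher, with an adjusted p-value of 0.0919 by the same test. Over the other 6 mutants its log2 fold change was between -0.07 and 0.13 and the groups overlapped.

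The 3 genes of the cleavage module had mean levels between 88.8% and 104.7% of control. *cpsf3*, the endonuclease, was at 97.2% to 102.9% of control over the 7 mutants, with 95% intervals within -0.29 and 0.29 on the log2 scale. Its libraries ran from 40.6 to 40.9 CPM in *gemin5* mutants and from 37.3 to 41.8 CPM in their siblings. *cpsf2*, the inactive partner of the endonuclease, was at 89.7% to 104.7% of control. *sympk*, the scaffold of the module, was at 88.8% to 101.9%, lowest in *gemin4* mutants at 28.1, 26.8 and 25.0 CPM against 28.9, 27.5 and 33.6 CPM. The lowest values of *cpsf2* and *sympk* were both in *gemin4* mutants, with log2 fold changes of -0.15 and -0.17, and in both genes mutant and control libraries overlapped. Adjusted p-values for these 3 genes were 0.631 or more in all 7 mutants by edgeR's quasi-likelihood test (Benjamini-Hochberg).

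Several of the genes, like most genes, differed between the wild-type groups. Of these, the shared control mixes libraries of the *gemin4*, *gemin6* and *gemin7* families, and the *gemin3* siblings had longer reads. In a test over the 4 wild-type groups, added after seeing the data, 5 of the 8 genes were called by edgeR's quasi-likelihood test (Benjamini-Hochberg), where 71.2% of all genes were called. A count of 5 among 8 is near this share and says little about the 8 as a group. The genes called were *npat* (adjusted p-value 1.93e-05), *lsm10* (0.000733), *slbp* (0.00795), *sympk* (0.00806) and *casp8ap2* (0.0395). The highest group mean was 1.94 times the lowest for *npat*, 1.63 times for *slbp*, 1.39 times for *sympk* and 1.22 times for *casp8ap2*. For *cpsf2* it was 1.16 times and for *cpsf3* 1.06 times, and neither was called. *lsm11*, at 1.57 times, was not called either.

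Other genes of the histone pathway had list medians near control. Of 6 further factors found of 11 looked for (*slbp2*, *srrt*, the exonuclease *eri1*, which trims the histone stem-loop, *cstf2*, *upf1* and *coil*, which encodes the marker protein of Cajal bodies), none was called in any mutant by edgeR, with 5 or 6 tested and medians from 0.02 to 0.08 on the log2 scale. None of 15 poly(A) cleavage factors and Integrator nuclease subunits was called in any mutant either, by edgeR or DESeq2, with medians from -0.07 to 0.03. The unadjusted p-value was below 0.05 for at most 2 of the first list and 1 of the second in any mutant. DESeq2 called *eri1* in *gemin5* mutants, as a rise of 0.50 on the log2 scale, and no other gene of these lists.

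S phase is when NPAT and histone mRNA are needed. Of 22 identifiers of S phase genes, 2 were called in *gemin2* mutants and none in the other 6 by edgeR's quasi-likelihood test (Benjamini-Hochberg). In *gemin2* mutants that test called 5.39% of all genes. *rrm2*, a subunit of ribonucleotide reductase, fell by 3.12 ± 0.47 (SE) on the log2 scale, and the helicase subunit *mcm7* fell by 0.96 ± 0.16. *rrm2* has a second identifier, which had a log2 fold change of 1.38 ± 0.36 (SE) in the opposite direction, with an adjusted p-value of 0.0673 by the same edgeR test, and which DESeq2 called as a rise. In *gemin6* mutants, where edgeR called no gene at all, the first identifier was at -2.49 ± 0.54 (SE) and the second at 1.09 ± 0.42. In the remaining mutants the first lay between -0.38 and 0.21 and the second between -1.255 and -0.37. Against the other non-regeneration mutants edgeR called both *rrm2* identifiers, the first as lower by a log2 value of -2.25 and the second as higher by 1.55. The division of reads between them is uncertain. Replication-independent histone variants are mostly made from mRNAs with a poly(A) tail, though in human cells H2AX mRNA can end in either form. Of 9 such genes, *h2ax* rose in *gemin2* mutants by 1.15 ± 0.23 (SE), beside the 5.39% of all genes called there, and none was called in another mutant. DESeq2 also called *ccne2*, which encodes a cyclin of the entry into S phase, as lower in *gemin3* mutants, and *macroh2a1* as lower in *gemin2* mutants. Against the other non-regeneration mutants, the comparison in which *lsm10* was called, edgeR also called *mcm7* (-0.96), *h2ax* (0.74), *h3f3b.1* (0.42) and *macroh2a1* (-0.60) in *gemin2* mutants. Of 8 identifiers found for the cell type markers, edgeR called 1, named *rho* (rod opsin), which rose in *gemin2* mutants by 1.12 ± 0.25 (SE) on the log2 scale. This identifier was at 13.2 to 16.6 CPM in *gemin2* mutants and 4.2 to 8.7 CPM in the shared control. A more abundant identifier of the same name, at 439.3 to 515.4 CPM against 376.5 to 412.2 CPM, was not called. DESeq2 also called *prss1* in *gemin5* mutants, as lower. In the comparison of *gemin2* with the other non-regeneration mutants edgeR called 3 of the 8 marker identifiers, all higher: the less abundant *rho* identifier (1.15), *krt4* (0.59, epidermis) and *ckma* (0.31, muscle), where 16.1% of all genes were called. The summed level of the 8 was 21900 to 26950 CPM in *gemin2*, 20760 to 27840 in *gemin4*, 12610 to 19250 in *gemin6* and 17780 to 20100 in *gemin7* mutants, and 18240 to 20910 in the shared control. The part of such cells in the *lsm10* value was not tested. Like *lsm10*, the *gemin2* values rest on a control without *gemin2* siblings.

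Of 9 genes with the name pattern of replication-dependent histones, 6 had a median of 0.068 CPM or less over the libraries, and none that was tested was called in any mutant against its control by edgeR or DESeq2. Against the other non-regeneration mutants edgeR's quasi-likelihood test (Benjamini-Hochberg) called 2 of 4 tested as higher in *gemin2* mutants, where 16.1% of all genes were called, 8% as higher. By that test *hist1h2a3* was higher by 1.23 (adjusted p-value 0.00792) and *hist2h3c* by 1.57 (0.0320), and DESeq2 called these and *hist1h2a7*. Their median levels over all libraries were 0.20, 0.78 and 0.037 CPM. *hist2h2l* alone was well expressed, at 24.0 to 83.8 CPM. Whether the library kit selected mRNA with poly(A) tails is not given in the sources used here, so how well replication-dependent histone mRNA was captured is not known. Replication-dependent histone genes under other names, or without a matched symbol, were not looked for. The values of these 9 genes are therefore not a measure of the replication-dependent histone mRNAs as a whole.

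Profiles were also compared over the 21 mutant libraries, each taken as its log2 value minus the mean of its control group. Those most like that of *lsm10* were the profiles of *lrif1* (Pearson's r = 0.87), *supv3l1* (0.85) and si:ch211-205a14.1 (0.83) among 21702 genes. Those most like *lsm11* were *dhrs4* (0.84), *bmal2* (0.80) and *tedc1* (0.78). *lsm10* and *lsm11* had r = 0.32 with each other, and *lsm11* had r = 0.67 with *slbp*. Libraries of a mutant share their family and their control, so the 21 are not independent. Family levels are subtracted only where the control is of the same family, and the shared control is of mixed families without *gemin2*.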

How the data were processed

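RNA-Seq of 33 pools of larval bodies was used, and 15 small RNA libraries were left out. The authors aligned reads to GRCz10 (danRer10, Ensembl annotation without pseudogenes) with STAR and estimated abundance with RSEM; the submitters' processing notes name Trimmomatic 0.36, STAR 2.5.4a and HISAT2 2.2.1.0. The deposited values are RSEM expected counts, which divide reads that fit several genes among them and need not be whole, and TPM, a length-corrected share of transcripts that the authors' RSEM run gave per gene. Samples were grouped by their titles.

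Expected counts were rounded and tested in R 4.3.3 with edgeR 4.0.16 (filterByExpr at default, TMM, quasi-likelihood fit and test, Benjamini-Hochberg adjustment over all genes tested, threshold 0.05), on the 6 libraries of a comparison, or on all 33 for contrasts between mutants. CPM were TMM-normalized over the 33 libraries. Standard errors were taken from the log2 fold change and its F statistic. The code was tested on simulated data. Depth per library is given with the results, and counts of *lsm10* and *lsm11* were low enough to limit precision. Symbols were matched for 26982 of 34707 identifiers. No genome or sequence of the files' build was used here. Libraries of a group were never copies of each other (smallest chi-square per degree of freedom 9.75).

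The named genes are the 8 members, listed pathway genes past the threshold in a comparison, and the 3 genes with profiles most like *lsm10* and *lsm11* (log2 of CPM plus 1, minus the mean of the control group). The members and all lists were chosen with earlier results of these data known. Alternatives were DESeq2 1.42.0, RLE normalization, no filter, a replicate block, all libraries in 1 fit, single family controls, mutants or families left out of the contrast, and each library left out. Replicate numbers were taken to pair libraries where every same-numbered pair of mutant and sibling deviated together with r above 0.1: r was 0.57 to 0.69 in the *smn1*, 0.27 to 0.52 in the *gemin3* and 0.41 to 0.72 in the *gemin5* family, so that the numbers pair libraries there and not in the other 4 comparisons. The values reported are from the fit without the block, which leaves this pairing out. For the 8 genes and the Sm genes in the paired families, calls that the block changes are given as a blocked value or as a count of blocked calls. Other lists are given without the block. The exact test of the TPM ratios exchanged libraries within families, and an alternative exchanged them within pairs.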

Additional observations from a re-analysis of the deposited data

Results flagged for a closer look

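The level of *lsm10* in *gemin2* mutants differed from that in the other non-regeneration mutants by edgeR's quasi-likelihood test (Benjamini-Hochberg, over all genes). It exceeded that in *gemin4* mutants by 0.81 on the log2 scale (adjusted p-value 0.0301, where 10.2% of all genes were called), that in *gemin6* mutants by 0.77 (0.0258, 16.8%) and that in *gemin7* mutants by 0.76 (0.0384, 10.4%). Against the mean of the 3 it was 0.78 higher. The values of the 3 *gemin2* libraries were above all 9 others, but only just. The lowest was 1.55 CPM, and the highest of the others was 1.53 CPM, in *gemin6* mutants. The share of all genes separated in this way was not counted. All 4 of these tests use the same *gemin2* libraries, so they are not independent of each other, and the part of the *gemin2* family's own *lsm10* level was not tested, as no wild-type library of that family was analysed here.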

How the results depend on the processing

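The 56 comparisons of the 8 genes with control kept their side of the threshold under every alternative run, except *lsm10* in *gemin2* mutants, called in the fit of all 33 libraries (1 of 8 genes in place of 0). The 1 gene called between *gemin2* and the other non-regeneration mutants, *lsm10*, was 0 to 1 genes when each replicate number was left out. The replicate block changed no call of the 8 genes: in *smn1* mutants *slbp* had an adjusted p-value of 0.234 and *lsm10* a log2 fold change of -0.0011 with the block, where it was 0.03 without it. In the 4 comparisons with the shared control the numbers are not paired, and no call of the 8 genes changed there either. The *snrpd1* to *lsm10* ratio ranged from 0.20 to 0.38 (log2) with each library left out, and without the *gemin3* or the *gemin5* family it was 0.20 or 0.36, no longer past the threshold; with libraries exchanged within pairs (replicate block) its p was 0.0469 in an exact permutation test. Most gene results lie near 0, and 45 of 72 changed sign under some alternative. Besides the libraries left out, these were *npat* in *gemin3* mutants, 0.0027 in the fit of all 33 libraries; *sympk* in *gemin5* mutants, -0.0015 with no filter; *cpsf3* in *gemin2* mutants, -0.0016 with RLE and -0.0036 with no filter, and in *gemin4* mutants, -0.00016 with DESeq2 and -0.0018 in the fit of all 33; and in the contrast of regeneration with non-regeneration mutants *cpsf2*, 0.0070 without *gemin2* mutants and 0.031 without the *gemin3* family, and *cpsf3*, -0.00077 with RLE. With the single wild-type library of the family as control, a value with no test, 10 of 24 changed sign: in *gemin4* mutants *lsm10* was -0.066 and *cpsf2* 0.037, in *gemin6* mutants *slbp* was 0.12, *npat* 0.11 and *cpsf2* -0.010, and in *gemin7* mutants *lsm10* was -0.16, *lsm11* -0.0079, *slbp* -0.039, *npat* -9.91e-06 and *cpsf3* -0.0038. Against all 12 wild-type libraries, chosen after seeing the data, *gemin2* mutants gave -0.15 for *lsm10*, -0.23 for *slbp*, -0.044 for *cpsf3* and -0.042 for *sympk*. With each library left out in turn, log2 values crossed 0 for 41 of the 72 gene results. They ran in *smn1* mutants from -0.28 to 0.20 for *lsm10*, -0.49 to 0.16 for *lsm11*, -0.13 to 0.084 for *casp8ap2*, -0.076 to 0.034 for *cpsf2*, -0.017 to 0.064 for *cpsf3* and -0.081 to 0.041 for *sympk*. The values ran in *gemin3* mutants from -0.023 to 0.38 for *lsm11*, -0.034 to 0.037 for *npat* and -0.048 to 0.0062 for *sympk*. Log2 values ran in *gemin5* mutants from -0.14 to 0.24 for *lsm10*, -0.30 to 0.082 for *lsm11*, -0.079 to 0.058 for *cpsf2*, -0.00030 to 0.076 for *cpsf3* and -0.013 to 0.017 for *sympk*. The ranges went in *gemin2* mutants from -0.023 to 0.20 for *slbp*, -0.094 to 0.052 for *cpsf2*, -0.040 to 0.033 for *cpsf3* and -0.087 to 0.11 for *sympk*. They went in *gemin4* mutants from -0.15 to 0.16 for *lsm10*, -0.15 to 0.19 for *lsm11*, -0.22 to 0.11 for *slbp* and -0.055 to 0.068 for *cpsf3*. They ran in *gemin6* mutants from -0.20 to 0.20 for *lsm10*, -0.30 to 0.022 for *lsm11*, -0.14 to 0.031 for *slbp*, -0.079 to 0.016 for *casp8ap2*, -0.037 to 0.11 for *cpsf2* and -0.064 to 0.099 for *sympk*. The values ran in *gemin7* mutants from -0.094 to 0.20 for *lsm10*, -0.059 to 0.18 for *slbp*, -0.00029 to 0.19 for *npat*, -0.020 to 0.11 for *cpsf3* and -0.081 to 0.066 for *sympk*. Log2 values ran in the contrast of regeneration with non-regeneration mutants from -0.31 to 0.027 for *lsm11*, -0.20 to 0.059 for *npat*, -0.044 to 0.051 for *cpsf2*, -0.035 to 0.037 for *cpsf3* and -0.10 to 0.12 for *sympk*. The ranges went in the contrast of *gemin2* with the other non-regeneration mutants from -0.037 to 0.14 for *cpsf2*, -0.039 to 0.032 for *cpsf3* and -0.015 to 0.18 for *sympk*. The cause of these sign changes was not tested. Counts of called genes over all genes changed more: with the block 21 became 350 in *smn1*, 237 became 480 in *gemin3* and 205 became 1700 in *gemin5* mutants, DESeq2 gave 177, 732, 593, 2100, 94, 22 and 61 in *smn1*, *gemin3*, *gemin5*, *gemin2*, *gemin4*, *gemin6* and *gemin7* mutants and 231 in the regeneration contrast in place of 132, and the fit of all 33 libraries gave 170 in *smn1*, 2694 in *gemin2* in place of 1249 and 67 in *gemin4* mutants in place of 4, and 14 and 4 in *gemin6* and *gemin7* mutants in place of 0. Against all 12 wild-type libraries 8142 genes were called in *gemin2* mutants, and the regeneration contrast called 69 without *gemin2* mutants and 68 without the *gemin3* family. The small counts of *lsm10* and *lsm11* limit what can be said of these genes.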
